A study of Xenopus laevis with 5 samples.

Results

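The genes described here encode the respiratory chain of mitochondria and the ATP synthase, in explants of Xenopus laevis ectoderm that carried the RNA of ICD with or without that of FoxJ1. They were chosen by symbol alone: complex I (nduf), complex II (sdha to sdhd), complex III (uqcr), cytochrome c (cycs), complex IV (cox4 to cox8) and the ATP synthase (atp5). The rule matched 71 probe sets, and the brightest probe set of each gene by mean signal over the 5 arrays gave 68 genes, of 7531 named genes on the array. Many genes of this frog exist as paired copies, marked L and S and known as homeologs, which are counted separately, so the 68 genes are 34 L and 34 S copies of 55 distinct names. Another 5 probe sets carried the symbols of both copies of a gene and were left out. Of the 68 genes, 66 were above the background level of the array on all 5 arrays.

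Embryos were injected with synthetic RNA at the 2-cell stage, and their presumptive ectoderm was explanted at stage 9 to 10 and grown on fibronectin until RNA was taken at stage 22. In 3 samples the RNA encoded ICD alone, and in 2 samples ICD and FoxJ1, so both groups carry ICD. ICD commonly stands for the intracellular domain of Notch, which the labels do not state, and FoxJ1 is a forkhead transcription factor of motile cilia. The labels give no strain, number of pooled explants or source of the replicates, so p-values reflect how far these samples spread, and that spread may be technical. The comparison asks which genes differ when FoxJ1 is added.

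Respiratory chain complexes pass electrons from NADH and succinate to oxygen and pump protons across the inner mitochondrial membrane, and the ATP synthase uses the returning protons to make ATP. Most subunits are encoded in the nucleus, as are all genes described here, while a few core subunits come from mitochondrial DNA. Ciliary beating consumes ATP, and the multiciliated cells and ionocytes of frog skin are known to be rich in mitochondria. In such bulk samples, a change in the number of cells of a type and a change in RNA per cell cannot be told apart.

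Each array gave 1 signal intensity per probe set, with medians from 62.1 to 73.5. Between 65.3% and 77.3% of probe sets exceeded the background level, which is the highest of 20 control probe sets on that array and lay between 16.9 and 28.4. Poly-A control transcripts, which are added before labelling, had median signals of 318 to 368 on the first array with FoxJ1 and on ICD replicates 1 and 2. On the remaining arrays, ICD replicate 3 and the other array with FoxJ1 (replicate 2), the medians were 2.95 and 1.90. The bioB control transcript, which is added at hybridisation, split the arrays the same way, with medians of 86.4 to 104 and of 228 and 250.5. The arrays thus fall into 2 sets, with and without poly-A signal, that cross the groups, and no label says what the sets are. No named probe set bore the symbol foxj1, so the injected gene could not be checked by name. Of 25 markers of skin epidermis and its goblet cells on the array, 4 were at background on every array, and their summed signal was 51437 to 67407 with ICD and 44799 to 54035 with FoxJ1. The number of arrays limits the precision.

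With FoxJ1, most genes of the respiratory chain and ATP synthase differed little, and 3 of the 67 tested rose while 0 fell. The 3 were ndufa8.L of complex I, atp5pd.L of the ATP synthase and ndufa4.L of complex IV, which rose by 1.57, 1.20 and 0.99 on the log2 scale. The other 64 did not pass the test, which was limma's at a Benjamini-Hochberg adjusted p of 0.05 over all 11618 probe sets tested. The share that rose, 4.48%, equals the 4.48% of all tested probe sets that rose, while 2.99% of all tested probe sets fell and 7.47% changed in either direction. At an unadjusted p under 0.05, 7 of the genes were higher and 0 lower, or 10.4% and 0%, against 12.3% of all probe sets in each direction.

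Log2 differences, here ICD+FoxJ1 minus ICD of log2(signal + 16), had a median of 0.13 over the 67 genes and of -0.03 over all tested probe sets. Their middle 50% of values ran from -0.08 to 0.38, against -0.35 to 0.34 for all probe sets, so the genes spread less. The genes were also brighter, with a median signal of 316 against 133, and these comparisons of spread were not matched for signal. Beyond 1 in size were 2.99% of these genes and 10.6% of all probe sets. The 95% interval lay within -1 and 1 for 53 of the 67 genes (79.1%) and for 52.5% of all probe sets. That is within a 2-fold change of signal + 16 either way, which for dim probe sets allows a larger change of signal. In 20 of the 67 genes (29.9%) both arrays with FoxJ1 lay above all 3 ICD arrays, and in 7 (10.4%) they lay below, against 21.2% and 23.0% of all probe sets. The median of the genes was 0.02 without ICD+FoxJ1 replicate 2 and 0.196 without ICD+FoxJ1 replicate 1.

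**Figure D1:**
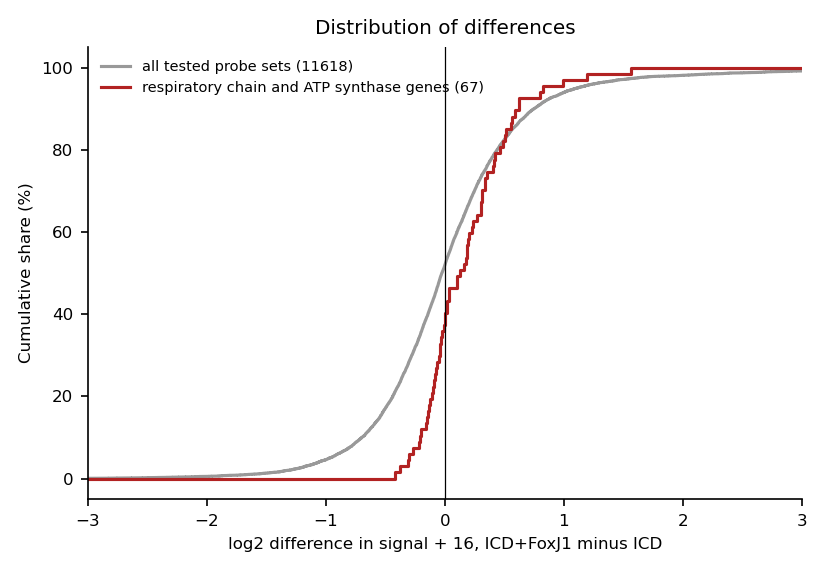
Cumulative share of log2 differences (horizontal axis, ICD+FoxJ1 minus ICD, of signal + 16) for all 11618 tested probe sets (grey) and for the 67 respiratory chain and ATP synthase genes (red). The red curve is steeper around 0, with its median at 0.13 against -0.03 for the grey one.

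The calls rest on few arrays. Without ICD+FoxJ1 replicate 1 or without ICD+FoxJ1 replicate 2, 0 of the 67 genes passed in limma, with 6 at an unadjusted p under 0.05 in each case. Without ICD replicate 1, 4 genes passed, ndufa8.L, atp5pd.L, ndufa4.L and sdhb.S, and without ICD replicate 2 or 3, 2 did. ICD replicate 1 correlated less with the other ICD arrays (r = 0.927 and 0.929) than these did with each other (0.966). Leaving it out gave 1387 probe sets past the threshold, against 868 with all 5 arrays. With the array set (with or without poly-A signal) as a block, the same 3 genes rose and 0 fell, where 3.21% of all probe sets rose and 1.82% fell.

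Complex I takes electrons from NADH, and 25 of its genes were tested, of which 1 rose and 0 fell (2 and 0 at an unadjusted p under 0.05). Ndufa8.L, an accessory subunit on the side of the intermembrane space, had signals of 225, 353 and 328 with ICD and of 850 and 976 with ICD and FoxJ1. Both arrays with FoxJ1 were thus more than 2-fold above the highest ICD array. Group means were 302 ± 67.5 (SD, n = 3) and 913 ± 89.6 (SD, n = 2). On the log2 scale the rise was 1.57 (SE 0.26, limma adjusted p = 0.0116). Within the arrays with and without poly-A signal it was 1.54 and 1.53. Leaving out either array with FoxJ1, replicate 1 or 2, ended the call (adjusted p = 0.100 or 0.124).

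No other gene of complex I passed in limma. Ndufa3.L, an accessory subunit of the membrane arm, had signals of 119, 117 and 152 with ICD and 197 and 217 with FoxJ1, without overlap, and a log2 difference of 0.62 (SE 0.24) that did not pass (limma adjusted p = 0.158). The products of the 7 core subunit genes belong to the part of the complex that binds NADH and passes electrons to ubiquinone. Their log2 differences lay between -0.31 and 0.42 with a median of 0.00, and 0 passed in limma (0 at an unadjusted p under 0.05). At the ends of this range were ndufs7.S, which carries an iron-sulphur cluster, with 217, 196 and 244 against 251 and 350, and ndufv1.L, which binds NADH, with 778, 774 and 816 against 592 and 678. Ndufs7.S was higher and ndufv1.L lower on both arrays with FoxJ1 than on any ICD array, and their adjusted p-values were 0.338 and 0.377 in limma. Ndufs3.L, another core subunit gene, differed by 0.41 (SE 0.23). Its S copy, like the core genes ndufs1.L and ndufs8.L, named after their values were seen, had overlapping groups and differed by -0.04, with -0.09 and 0.001 for those genes.

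The remaining accessory genes of complex I included ndufa9.L, with a log2 difference of 0.10 (95% interval -0.51 to 0.72). Among genes chosen after their values were seen, ndufb9.L and ndufb10.S, subunits of the membrane arm, differed by -0.38 and -0.30, and ndufab1.L, the mitochondrial acyl carrier protein, by -0.27. A dimmer probe set for ndufb9.L differed by -0.41, close to the brighter one. For ndufb10.S the dimmer probe set differed by 0.68 (SE 0.26), opposite in sign, so the direction of this gene depends on the probe set, and neither passed. The 1 assembly factor gene, ndufaf7.S, a methyltransferase that acts on complex I, differed by -0.08 (SE 0.29).

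**Figure D2:**
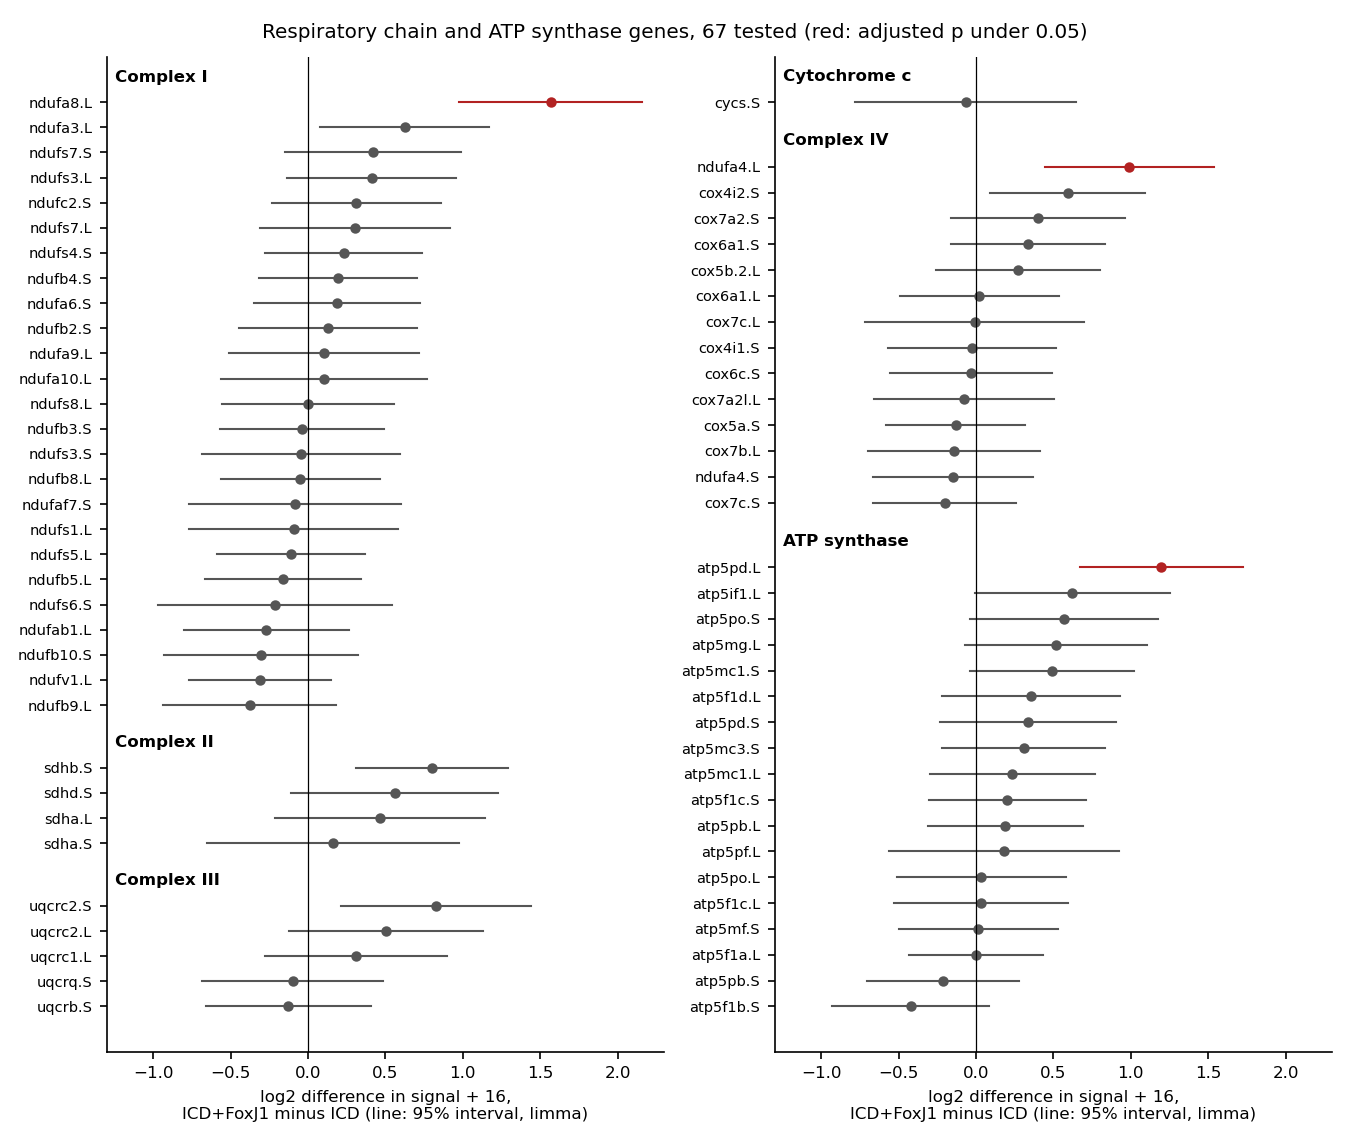
Log2 difference (horizontal axis, ICD+FoxJ1 minus ICD, of signal + 16) of the 67 tested genes, by complex, with lines for limma's 95% intervals from 3 ICD and 2 ICD+FoxJ1 arrays. Ndufa8.L, ndufa4.L and atp5pd.L, in red, passed an adjusted p of 0.05, and most other intervals span 0.

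Complex II, or succinate dehydrogenase, links the citric acid cycle to the chain, and 0 of its 4 genes passed in limma (1 higher at an unadjusted p under 0.05). The estimates of all 4, which include both copies of sdha, were above 0, against 48.1% of all probe sets. Their median log2 difference was 0.51. Sdhb.S, the iron-sulphur subunit, had signals of 243, 269 and 263 with ICD and 445 and 479 with FoxJ1. The ICD signals lay close together, and both arrays with FoxJ1 were far above them, with means of 258 ± 13.5 (SD, n = 3) and 462 ± 24.4 (SD, n = 2). The log2 difference of 0.80 (SE 0.21) stayed above the threshold (limma adjusted p = 0.0627), and it passed without ICD replicate 1 (adjusted p = 0.0474). Sdhd.S, a membrane anchor, had 74.9, 53.1 and 105 against 118.8 and 118.5, a log2 difference of 0.56 (SE 0.29). The flavoprotein gene sdha, named after its values were seen, differed by 0.47 in the L copy, with overlapping groups, and by 0.16 in the S copy, which was below the background level on ICD replicate 1 with a signal of 12.8.

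Complex III passes electrons from ubiquinol to cytochrome c, and 0 of its 5 genes passed in limma (1 higher at an unadjusted p under 0.05). Both copies of uqcrc2, a core protein gene, were higher on each array with FoxJ1 than on any ICD array. Uqcrc2.S had signals of 58.1, 71.6 and 97.3 with ICD and 135 and 155 with FoxJ1, differing by 0.83 on the log2 scale (SE 0.26, limma adjusted p = 0.108). Uqcrc2.L had 232, 306 and 373 against 492 and 376, a difference of 0.51 (SE 0.27), which was 0.85 within the arrays with poly-A signal and 0.01 within the other arrays. The other core protein gene, uqcrc1.L, picked from its values, had overlapping signals of 334, 378 and 452 against 402 and 576. The smaller subunit gene uqcrb.S differed by -0.13 (SE 0.23). For the single cytochrome c gene, cycs.S, ICD replicate 1 stood apart with 647 against 350 and 349 on the other ICD arrays, and the arrays with FoxJ1 had 428 and 392. Its log2 difference was -0.07 (SE 0.31), and 0.22 without ICD replicate 1.

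In complex IV, or cytochrome c oxidase, 1 of 14 tested genes rose and 0 fell (2 and 0 at an unadjusted p under 0.05), with a median log2 difference of -0.02. Ndufa4.L rose, whose product was long counted to complex I and is now placed in complex IV in mammals. Its signals were 1320, 1180 and 1660 with ICD and 2318 and 3241 with FoxJ1. The groups did not overlap, although the arrays with FoxJ1 differed from each other by more than the gap to the highest ICD array. Group means were 1387 ± 247 (SD, n = 3) and 2780 ± 652 (SD, n = 2). The log2 difference was 0.99 (SE 0.24) at a limma adjusted p of 0.0457, or 0.0341 once the array set entered as a block. The call was lost with each array scaled to the same median (adjusted p = 0.0756), with no filter on dim probe sets (0.0645), with a pseudocount of 1 (0.0503), with no trend in the variance (0.0627), without ICD replicate 2 (0.116), without ICD+FoxJ1 replicate 1 (0.130) and without ICD+FoxJ1 replicate 2 (0.298).

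Several subunits of complex IV exist as isoforms. Cox4i1, the widespread form of the COX4 subunit, had signals of 461, 561 and 628 with ICD and 480 and 597 with FoxJ1 in the S copy, which overlap, and a log2 difference of -0.03 (95% interval -0.57 to 0.52). Cox4i2, known in mammals as the form of lung and of low oxygen, had 348, 334 and 336 against 579 and 467 in the S copy. Both arrays with FoxJ1 lay above the narrow range of the ICD arrays, and its difference, 0.59 in log2 (SE 0.22), missed the threshold (limma adjusted p = 0.145). The difference between the isoforms was not tested. Cox4i2.L was the 1 gene that the filter on dim probe sets left out, with signals of 16.2, 23.2 and 8.80 against 21.4 and 24.6, and it exceeded the background level on 2 arrays. Cox6a1.S differed by 0.33 (SE 0.21), cox6a1.L by 0.02 (SE 0.22) and cox7a2.S by 0.40 (SE 0.24). The lowest estimate was that of cox7c.S at -0.20. Cox5a.S, another nuclear-encoded subunit, had 812, 801 and 896 against 777 and 746, slightly lower on both arrays with FoxJ1 at a log2 difference of -0.13 (SE 0.19). Cox7a2l.L, whose product joins complexes III and IV in mammals, had 60.8, 45.3 and 75.4 against 53.9 and 57.2, with overlap. These 3 genes were picked after their values were seen.

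**Figure D3:**
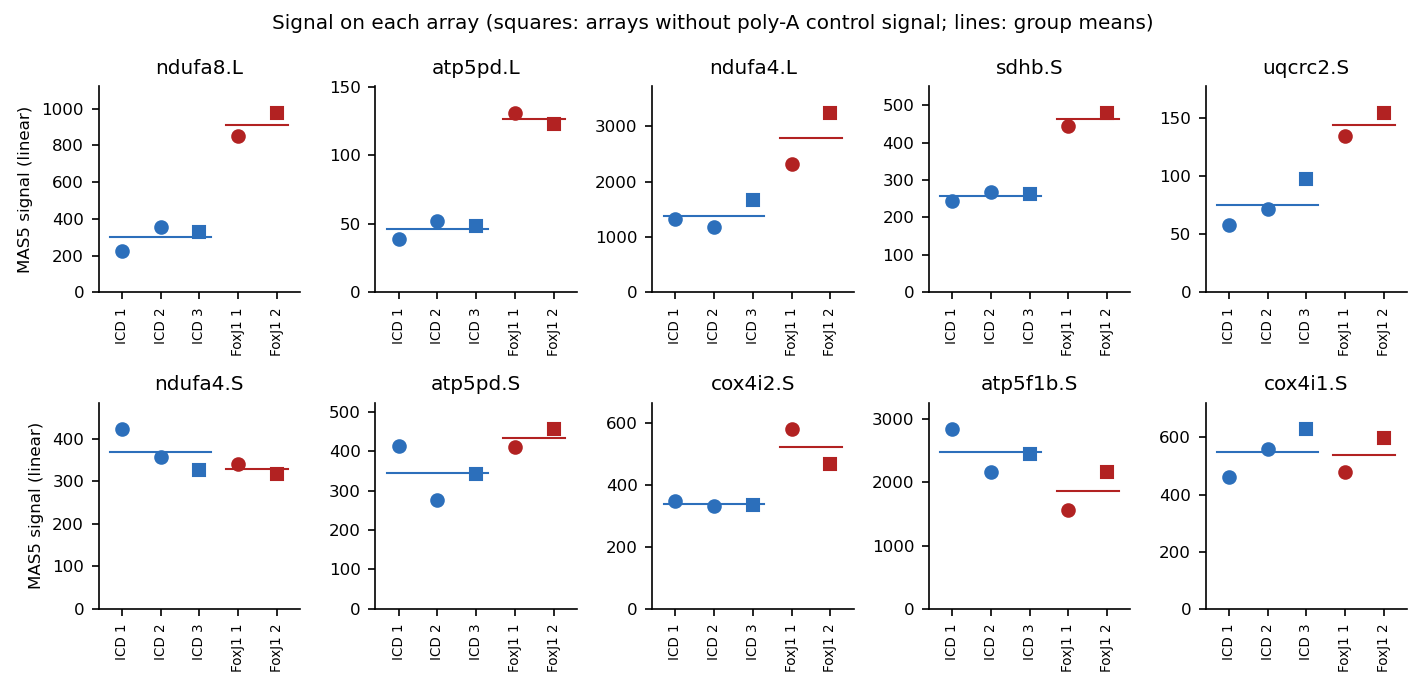
MAS5 signal (vertical axis, linear, from 0) of 10 genes on each of the 5 arrays, ICD in blue and ICD+FoxJ1 in red, with squares for the arrays without poly-A control signal and lines for group means. Ndufa8.L, atp5pd.L, ndufa4.L, sdhb.S and uqcrc2.S are higher on both arrays with FoxJ1, atp5f1b.S is lower, and the groups of cox4i1.S overlap.

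The ATP synthase consists of a catalytic head with a central stalk, a proton-driven ring in the membrane and a peripheral stalk that holds the head in place. Of its 18 genes, 1 rose and 0 fell, the same counts as at an unadjusted p under 0.05, and 15 estimates (83.3%) were above 0, against 48.1% of all probe sets and 61.2% of all 67 genes. The median log2 difference was 0.22. Atp5pd.L, subunit d of the peripheral stalk, had signals of 39.1, 52.3 and 48.1 with ICD and 131 and 123 with FoxJ1. The arrays within each group lay close together, far apart from the other group. Group means were 46.5 ± 6.74 (SD, n = 3) and 127 ± 5.94 (SD, n = 2). On the log2 scale the rise was 1.20 (SE 0.23, limma adjusted p = 0.0217). The rise was 1.26 within the arrays with poly-A signal and 1.11 within the others. Leaving out ICD replicate 3 gave an adjusted p of 0.0594, and leaving out the arrays with FoxJ1, replicate 1 or 2, gave 0.191 or 0.138.

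Of the other peripheral stalk and membrane genes, atp5po.S encodes the protein that joins this stalk and the head. Atp5po.S had 126, 156 and 199 with ICD and 220 and 266 with FoxJ1, differing by 0.57 on the log2 scale (SE 0.26, limma adjusted p = 0.231). Its L copy had 224, 213 and 288 against 240 and 252, which overlap, and differed by 0.04. The ring subunit gene atp5mc3.S differed by 0.31 (95% interval -0.22 to 0.83). Another ring subunit gene, atp5mc1, was higher on both arrays with FoxJ1 than on any ICD array in both copies, by 0.24 in the L copy and 0.49 in the S copy. The copies of the stalk gene atp5pb had estimates of opposite sign, 0.19 in L and -0.21 in S, and none of these 4 copies passed (limma adjusted p from 0.235 to 0.631). Both genes were picked after their values were seen. In the catalytic head and the central stalk, the log2 differences of 5 genes ran from -0.42 to 0.35, and 0 passed in limma (0 at an unadjusted p under 0.05). Atp5f1b.S, the catalytic beta subunit, had signals of 2839, 2172 and 2450 with ICD against 1568 and 2167 on the arrays with FoxJ1. Its estimate, -0.42 in log2 (SE 0.22, limma adjusted p = 0.283), was the lowest of all 67. Atp5f1a.L, the alpha subunit, which forms the head together with beta and was also picked from its values, had 1191, 1081 and 1160 against 1102 and 1182, with overlap and a log2 difference of -0.003 (SE 0.19). Atp5f1d.L, the delta subunit, differed by 0.35 (SE 0.25). Atp5if1.L, the inhibitor that stops the enzyme from splitting ATP, had 194, 155 and 173 against 216 and 351. Its groups did not overlap, but ICD+FoxJ1 replicate 2 was well above replicate 1, and the difference, 0.62 in log2 (SE 0.27), missed the threshold (limma adjusted p = 0.208).

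For 12 genes both copies were tested, and in 9 the L and S estimates had the same sign. The share of all pairs with the same sign was not counted, so nothing is read from this count. The copies of ndufa4 and atp5pd lay farthest apart. While ndufa4.L rose, ndufa4.S had 422, 357 and 326 with ICD and 340 and 318 with FoxJ1, a log2 difference of -0.15 (SE 0.22). Atp5pd.S had 415, 276 and 343 against 411 and 456, a difference of 0.33 (SE 0.24). Whether the copies moved apart was tested on the ratio of L to S signal over all 799 pairs with both copies tested. The log2 ratio of ndufa4 was higher with FoxJ1 by 1.14 (SE 0.29, limma adjusted p = 0.0754) and that of atp5pd by 0.86 (SE 0.31, adjusted p = 0.216). Thus 0 of the 12 pairs passed in limma, where 2.38% of all pairs passed. At an unadjusted p under 0.05 there were 2, and the share of all pairs at that level was not counted. The ratio of ndufa4 passed once the array set entered as a block (limma adjusted p = 0.0413). Without the block, the ratio of ndufa4 also did not pass when any single array of either group was left out. The ratio did not overlap between the groups in 7 of the 12 pairs, against 34.8% of all pairs. Since L and S transcripts are similar, RNA of either copy may bind to the probe set of its partner.

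**Figure D4:**
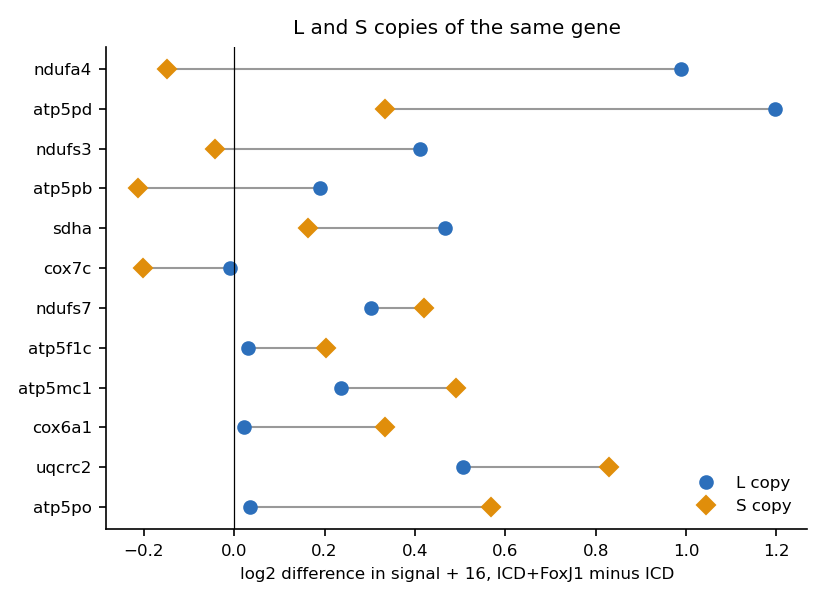
Log2 difference (horizontal axis, ICD+FoxJ1 minus ICD, of signal + 16) of the L copy (blue circle) and the S copy (orange diamond) of 12 genes, sorted by the gap between them. The gap is widest in ndufa4, from -0.15 to 0.99, and in atp5pd, from 0.33 to 1.20.

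The genes also differed between the arrays with and without poly-A signal. In 40 of the 67 (59.7%), the arrays without poly-A signal were on average (mean log2 value) higher than those with it in both groups, against 29.4% of all probe sets. These included 13 of 18 genes of the ATP synthase and 17 of 25 of complex I. ICD+FoxJ1 replicate 2 was the highest of the 5 arrays for 29 genes (43.3%, against 18.7% of all probe sets), and ICD replicate 2 was the lowest for 23 (34.3%, against 13.3%). Both sets hold arrays of both groups, so the comparison can be made within each. The median log2 difference of the 67 genes was 0.11 within the arrays with poly-A signal and 0.15 within the others. With the array set as a block it was 0.08, against 0.13 without the block. In 32 genes (47.8%, against 35.0% of all probe sets) the difference was above 0 within both sets, in 17 (25.4%, against 38.0%) it was below 0 within both, and in 18 its sign differed between them. The 3 genes that rose did so by similar amounts in both. Since the same arrays gave their calls, this similarity is not a separate test of them. What else the sets differ in was not tested.

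**Figure D5:**
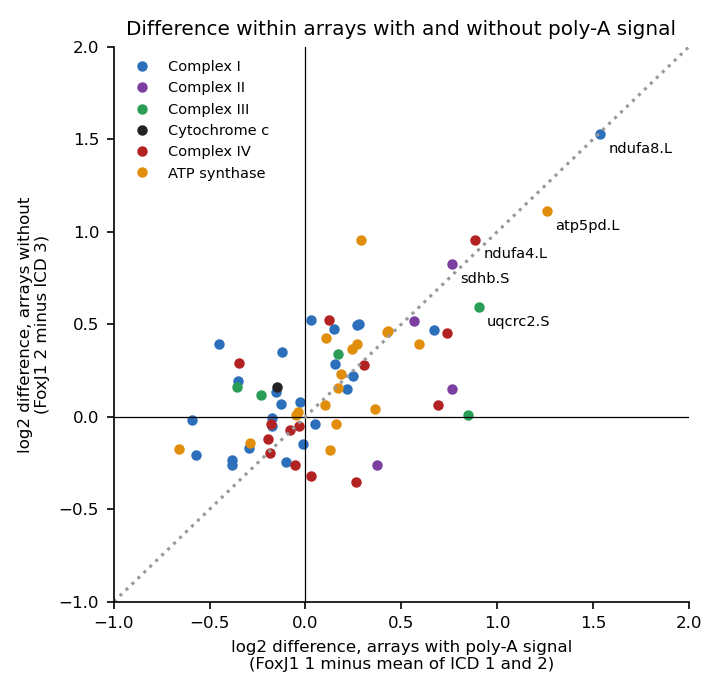
Log2 difference of each of the 67 genes within the arrays with poly-A control signal (horizontal axis) and within the arrays without (vertical axis), coloured by complex, with a dotted line where both are equal. Ndufa8.L, atp5pd.L, ndufa4.L and sdhb.S lie near that line, while most genes gather around 0.

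Genes outside these complexes that supply or maintain mitochondria were counted in the same fit, in 8 lists with 192 tested genes, of which 3 rose and 0 fell, or 1.56% and 0% against 4.48% and 2.99% of all probe sets. At an unadjusted p under 0.05, 28 (14.6%) were higher and 7 (3.65%) lower, against 12.3% each. Of 30 genes of the citric acid cycle and pyruvate oxidation, 2 rose, both copies of pdhb, a subunit of pyruvate dehydrogenase, and 0 fell. At an unadjusted p under 0.05, 11 of the 30 (36.7%) were higher and 0 lower, and 15 (50%) had both arrays with FoxJ1 above all ICD arrays, where 21.2% of all probe sets did. Pdhb.L had signals of 122, 143 and 116 with ICD and 350 and 283 with FoxJ1, and rose by 1.22 on the log2 scale (SE 0.24, limma adjusted p = 0.0230). Pdhb.S had 122, 92.1 and 118 against 252 and 341, and a difference of 1.30 (SE 0.25, adjusted p = 0.0237). Of 12 genes of fatty acid oxidation, 1 rose and 0 fell (2 and 0 at an unadjusted p under 0.05). This was hadhb.S, a subunit of the trifunctional enzyme, which went from 53.3, 76.1 and 134 to 432 and 477. Its log2 difference was 2.25 (SE 0.34, limma adjusted p = 0.00859), and the electron carrier gene etfb.L differed by 0.69 (SE 0.25). The calls of these lists and of the glycolysis list were lost when either array with FoxJ1 was left out.

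In 26 further genes of the chain and its assembly, 0 passed in limma (4 higher and 1 lower at an unadjusted p under 0.05). The smallest p-values belonged to the complex IV assembly genes cmc2.L and coa7.L, which differed by 0.98 (SE 0.30) and 0.94 (SE 0.28) on the log2 scale. The largest estimate of the list was 2.34, of a gene that did not pass and had a larger p than cmc2.L and coa7.L. Of the 26 estimates, 20 were above 0. Both arrays with FoxJ1 lay above all ICD arrays in 11 genes (42.3%, against 21.2% of all probe sets). They lay below in 3 (11.5%, against 23.0%). Of 12 genes for mitochondrial DNA and its regulators 0 passed (1 higher and 2 lower at an unadjusted p under 0.05), with a median of -0.31. Esrra.L, a nuclear receptor of mitochondrial gene control, had 20.1, 128 and 193 with ICD and 626 and 667 with FoxJ1. The ICD arrays spread widely and all lay below those with FoxJ1. On ICD replicate 1 the signal of 20.1 was under the background level of that array, 28.4. The log2 difference of esrra.L, 2.69 (SE 0.66), just missed the threshold (limma adjusted p = 0.0506). Gabpb1.S, of the same list, differed by -1.03 (SE 0.35).

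The 4 other lists held 22 carrier and porin genes, 43 for protein import and quality control, 10 for fusion and fission and 37 for the mitochondrial ribosome, and in each 0 passed in limma. At an unadjusted p under 0.05 these lists had 2, 6, 0 and 2 genes higher (9.09%, 14.0%, 0% and 5.41%). Lower were 0, 2, 0 and 2 (0%, 4.65%, 0% and 5.41%), against 12.3% of all probe sets in each direction. The smallest p-values belonged to vdac2.S (0.60) and slc25a11.S (0.59) among carriers and porins, phb2.S (-0.94, SE 0.24, limma adjusted p = 0.0575) and clpx.L (0.71) in import and quality control, mief1.S (-0.48) and mfn2.L (0.60) in fusion and fission, and mrpl51.L (0.70) and mrps24.S (-0.66) in the ribosome, each a log2 difference. Their medians were 0.16, -0.04, 0.00 and -0.04. Of 26 tested genes of glycolysis, which makes ATP outside mitochondria, 3 rose (11.5%, against 4.48% of all probe sets) and 0 fell (against 2.99%). Eno1.S rose by 1.86, aldoa.S by 1.72 and pkm.L by 1.38. At an unadjusted p under 0.05, 5 (19.2%) were higher and 2 (7.69%) lower, against 12.3% of all probe sets in each direction. The median log2 difference of the glycolysis genes was 0.37 within the arrays with poly-A signal and 0.07 within the others. ICD replicate 1 was the lowest of the 5 arrays for 17 of them (65.4%, against 29.4% of all probe sets).

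Markers of cell types moved between the groups as well. For comparison with the counts below, 4.48% of all tested probe sets rose and 2.99% fell. All 14 multiciliated cell markers on the array were tested and 11 rose, with a summed signal of 3535 to 8097 on the ICD arrays and of 26263 to 32344 on those with FoxJ1. Many markers of this list are genes of cilia, and FoxJ1 is a transcription factor of motile cilia, so their rise does not count cells. Of 11 tested ionocyte markers 3 rose and 2 fell, and the summed signal of all 15 on the array was 1992 to 2496 against 2693 to 3169. Of 21 tested markers of epidermis and goblet cells 0 rose and 5 fell, and of 9 tested neural markers 0 rose and 3 fell, with summed signals of all 15 neural markers of 1112 to 1726 and 1045 to 1123. Of 4 tested muscle markers 1 rose and 1 fell, and 10 of the 16 on the array were at background on all arrays, with summed signals of 881 to 974 and 663 to 699. With the array set as a block, 12 multiciliated markers rose and 0 fell, and 1 ionocyte marker rose and 1 fell. Of the markers of epidermis and goblet cells, of neural cells and of muscle, 0 rose and 5, 2 and 1 fell. In that fit 3.21% of all probe sets rose and 1.82% fell. No marker in these lists was at 0 on all arrays. The signals of the 68 respiratory chain and ATP synthase genes summed to 29283, 26597 and 30790 with ICD and to 29719 and 35837 with FoxJ1, which overlap. The part of these cell types in the rise of ndufa8.L, atp5pd.L and ndufa4.L was not tested.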

How the data were processed

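RNA of 5 explant samples (3 ICD, 2 ICD+FoxJ1, grouped by title) was hybridised as biotin-labelled cRNA to Affymetrix arrays. The values deposited by the authors are MAS5 signal intensities, linear and 1 for each probe set, per the submitters' processing notes, which name no version or settings. Means trimmed by 2% at either end were 200.02 to 200.03, so arrays were taken as scaled.

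Of 15611 probe sets, 120 controls were left out. GEO's platform annotation named 1 gene for 9304 of the others, more than 1 for 195 and no gene for 5992, and all 68 gene identifiers of the respiratory chain and ATP synthase genes were in the RefSeq table of assembly Xenopus_laevis_v10.1, used for names only. Values were compared as log2(signal + 16), which understates the change of dim probe sets, after the 25% with the lowest mean log2 value were removed. Models were fitted with limma (version 3.58.1, R 4.3.3; lmFit, eBayes with trend), two-sided, with Benjamini-Hochberg adjustment over 11618 probe sets. Code was tested on simulated data. Figures used matplotlib 3.10.9.

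The genes, lists and alternatives were chosen with earlier results of these data known. The filter on linear means and the test of L to S ratios were added after values were seen. Genes were named where they passed, by smallest p or highest signal per complex or role, as isoforms, as homeologs far apart, and by the 2 smallest p per other list. Any other gene is marked in the text as picked from its values.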

Additional observations from a re-analysis of the deposited data

How the results depend on the processing

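Pseudocounts of 1 and 64, no filter or one of 50%, a filter on linear means, quantile normalization, scaling to equal medians, a fit without trend and the array set (with or without poly-A signal) as a block left 2 or 3 of the respiratory chain and ATP synthase genes past the threshold, as did joining homeologs or using all matching probe sets. With a replicate block 0 passed in limma (5 at an unadjusted p under 0.05) and 316 probe sets did. The labels name no shared source for same-numbered samples, so they share only a number. Their deviations from the group means correlated at r = -0.06 and -0.32 across probe sets, but with 2 arrays in the FoxJ1 group the deviations mirror each other, so these values neither show nor exclude pairing. With only the 3 arrays that have poly-A signal, 0 passed (3 at an unadjusted p under 0.05), with 189 probe sets. Leaving out single arrays gave 0 to 4 of these genes and 148 to 1387 probe sets. The other mitochondrial and glycolysis lists had 6 genes past the threshold, 10 with quantile normalization, 0 with only the arrays that have poly-A signal (13 at an unadjusted p under 0.05) and 0 to 13 with single arrays left out. Fits on fewer arrays have fewer degrees of freedom, and a lone array is assumed to vary like the other group. The median log2 difference of the respiratory chain and ATP synthase genes ran from 0.02 to 0.20 over all settings.

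Of the 67 tested genes of the chain and ATP synthase, 23 had estimates of both signs over the settings, and 0 of these were among the 3 that rose. Among the 28 tested genes that the naming rule gave, 17 of 446 alternative values had the opposite sign, in 6 genes. With median scaling atp5po.L was at -0.024 and cox6a1.L at -0.041, with the array set as a block they were at -0.0048 and -0.00040, with the replicate block cox4i1.S was at 0.073, and with only the arrays that have poly-A signal ndufa9.L was at -0.031. Leaving out single arrays gave -0.043 to 0.16 for atp5po.L, -0.089 to 0.15 for cox6a1.L, -0.18 to 0.13 for cox4i1.S, -0.21 to 0.22 for cycs.S, -0.19 to 0.39 for ndufa9.L and -0.30 to 0.12 for ndufaf7.S. The cause of these reversals was not tested.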
